A study of Mus musculus with 12 samples.

Results

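The 7 genes described here were C2cd4b, C2cd4a, Cbln1, Trim47, Spon2, Ms4a18 and Rtn4rl1, taken from 36799 genes or unnamed transcripts on an Agilent mouse expression array. They were chosen by measured values: they were picked because their RNA differed between hormone and vehicle where the vitamin D receptor was present, and because they lie outside calcium handling. The wild-type and knockout hormone responses, and the difference between them, therefore chose the genes, and these values are given as a description without a test. The members were every non-control probe whose accession maps to 1 of these symbols, which gave 10 probes. All 10 passed the filter on dim probes, but Cbln1 passed through the wild-type hormone group alone.

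The arrays measured RNA of colonic organoids, which are crypts from mouse colon embedded in Matrigel and grown as a culture enriched in stem cells. The mice were of strain C57BL/6, 3 wild type and 3 labelled VDR KO, the targeted allele being not described further in the labels. Mouse 1 of each genotype is labelled male and aged 2 months, mouse 2 female and 3 months, and mouse 3 female and 2 months. Organoids of each mouse received either EtOH (the vehicle) or 1,25(OH)2D3 (calcitriol, the active form of vitamin D) at 100 nM, repeated every 48 h, and the duration is 72 h in the series' design text but 62 h in the sample descriptions. This gave 12 arrays in 4 groups of 3.

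Calcitriol acts by binding the vitamin D receptor, a nuclear receptor that pairs with a retinoid X receptor and binds DNA near its target genes. Its classical intestinal targets degrade the hormone or carry calcium. The genes here have other known roles: signalling proteins with a C2 domain (C2cd4b, C2cd4a), a secreted synapse organizer (Cbln1), a tripartite-motif ubiquitin ligase (Trim47), an extracellular matrix protein also called mindin (Spon2), a membrane protein of the four-pass MS4A family (Ms4a18) and a receptor related to the Nogo receptor (Rtn4rl1).

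Levels are log2 of the processed spot intensity minus the array's 75th percentile, so a level of 0 means a probe as bright as that percentile. The percentile lay between 580.6 and 790.5 intensity units, and 55.0% to 66.4% of spots were well above background on 11 arrays against 72.8% on the vehicle array of wild-type mouse 2. Vdr, the targeted gene, lay between 0.82 and 2.01 on the wild-type arrays and between -0.43 and 0.37 on the knockout arrays, with no overlap, and whether its probe lies in the deleted part is not known here. Cyp24a1, the gene of the calcitriol-degrading hydroxylase, lay between 5.59 and 6.45 in wild-type calcitriol cultures and at -4.13 or below elsewhere. The Y-linked gene Ddx3y was at 0.56 to 0.75 on the 4 arrays of mouse 2, labelled female, and at -6.83 or below on the others, including those labelled male, so the sex labels of mice 1 and 2 are contradicted in both genotypes.

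C2cd4b and C2cd4a, a pair of related genes on chromosome 9, were both far higher with calcitriol in wild type and level in knockout. They encode small proteins with a C2 domain, a fold known for binding calcium and phospholipids, and have been described in endothelial cells and pancreatic islets. C2cd4b stood at -0.58, 0.55 and 0.74 in the vehicle cultures of wild-type mice 1, 2 and 3, and at 3.68, 3.99 and 4.34 with calcitriol. The lowest hormone array lay far above the highest vehicle array, and mouse 1 was lowest in both groups. The difference was 3.76 (SE 0.39, n = 3 and 3), a 13.6-fold change that took the mean from 1.18 to 16 times the 75th percentile. Every SE is limma's, from a spread pooled over the 4 groups without pairing arrays by mouse. An SE of the main fit is thus equal in the 2 genotypes and is not the spread between mice of either genotype. In knockout, C2cd4b stood at -0.80, 0.21 and 0.06 in vehicle and at -0.83, 0.06 and 0.22 with calcitriol. Mouse 1 was again the lowest in each knockout group, and the 2 groups overlapped, with a difference of -0.01 (SE 0.39).

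C2cd4a stood at -2.00, -1.07 and -1.38 in wild-type vehicle and at 0.84, 1.12 and 1.38 with calcitriol. The groups did not overlap, and the difference of 2.60 (SE 0.25) was a 6.06-fold change. The 6 knockout arrays lay within a narrow band, at -2.18, -1.69 and -2.16 in vehicle and at -1.92, -1.72 and -1.77 with calcitriol. They overlapped, with a difference of 0.21 (SE 0.25), and mouse 1 was the lowest of the 3 in each of the 4 groups, as it was for C2cd4b.

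Each of these genes has 2 probes, which serve as a check within the same samples and are not replicates. The other C2cd4b probe differed by 3.64 between calcitriol and vehicle in wild type and by 0.06 in knockout, close to the main probe. The other C2cd4a probe gave 3.19 in wild type, against 2.60 for the main probe, and 0.00 in knockout. The 2 probes of C2cd4a were closer together in wild-type calcitriol cultures than elsewhere, their gap ranging from 0.38 to 1.63 over the 12 arrays, while the gap for C2cd4b ranged from 0.20 to 0.46.

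**Figure D1:**
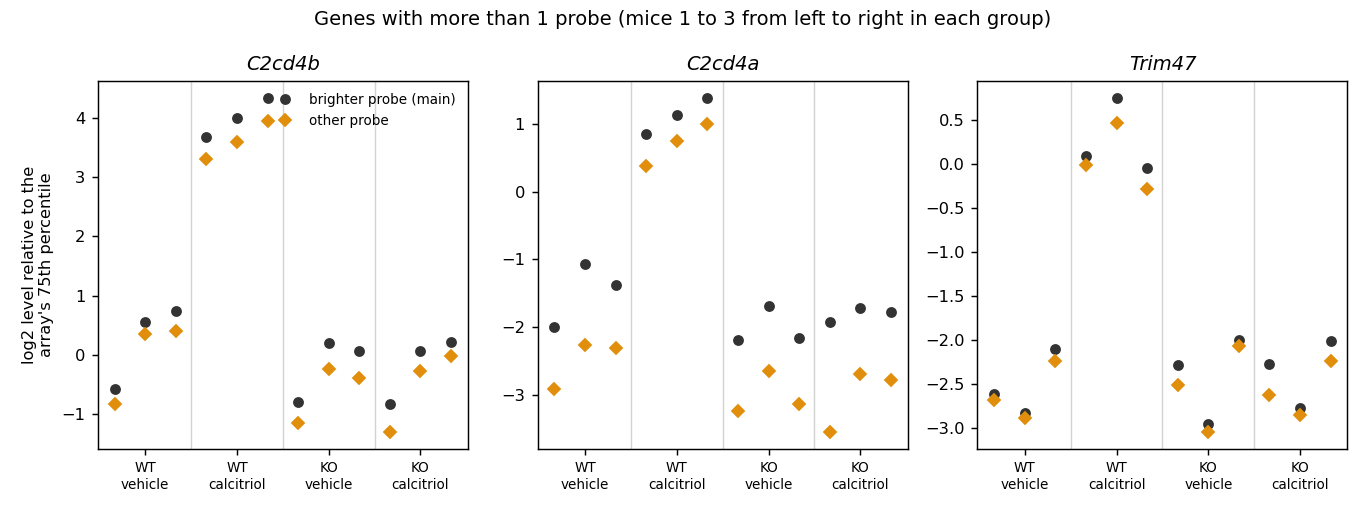
Levels (log2, relative to the array's 75th percentile) of both probes of C2cd4b, C2cd4a and Trim47 on the 12 arrays, in the order of mice 1 to 3 within each group (WT, wild type; KO, Vdr knockout). The probes of a gene move together, and for C2cd4a the gap between them narrows in wild-type calcitriol cultures to as little as 0.38.

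The upstream sequences of the C2cd4 pair are shown because the 2 genes had the same pattern in these cultures, together with that of Ms4a18, which was lower with calcitriol. The RefSeq promoter table (GRCm38.p6) matched 4 of the 7 genes, and each sequence covers the 250 bases before the annotated start, written 5′ to 3′ on the gene's strand. C2cd4b is at chr9:67759187-67759436 (plus strand), C2cd4a at chr9:67832331-67832580 (minus strand) and Ms4a18 at chr19:11017964-11018213 (minus strand). Capitals mark a TATAAA box in C2cd4a and a receptor hexamer in Ms4a18.
C2cd4b: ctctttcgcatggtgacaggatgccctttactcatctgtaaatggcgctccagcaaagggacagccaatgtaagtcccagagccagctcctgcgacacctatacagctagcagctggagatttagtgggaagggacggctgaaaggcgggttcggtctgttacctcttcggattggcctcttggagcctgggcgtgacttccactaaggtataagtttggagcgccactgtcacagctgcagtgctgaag
C2cd4a: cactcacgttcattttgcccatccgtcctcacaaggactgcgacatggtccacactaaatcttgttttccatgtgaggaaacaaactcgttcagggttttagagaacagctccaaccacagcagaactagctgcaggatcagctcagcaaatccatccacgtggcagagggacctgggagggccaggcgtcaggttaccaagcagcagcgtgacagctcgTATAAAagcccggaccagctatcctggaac
Ms4a18: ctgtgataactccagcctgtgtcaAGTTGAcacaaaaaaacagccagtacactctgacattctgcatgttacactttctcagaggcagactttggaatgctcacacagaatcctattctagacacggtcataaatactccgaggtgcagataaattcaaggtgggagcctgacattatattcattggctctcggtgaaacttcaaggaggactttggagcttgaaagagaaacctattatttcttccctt

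The windows were searched on both strands for 8 receptor hexamers, which read NGNTNA with A or G in place of the first N, G or T in place of the next and C or G in place of the last, and for the VDRE, a pair of these hexamers in 1 direction with 3 bases between them. None of the 4 windows held a VDRE, which 0.222% of the table's 32851 windows did. A single hexamer, AGTTGA, lay 226 to 221 bases before the start of Ms4a18, and 60.3% of all windows held at least 1 of the 8. TATAAA lay 30 to 25 bases before the start of C2cd4a, and was held by 12.4% of all windows on either strand. The G and C content was 54.4% in C2cd4b, 52.8% in C2cd4a, 42.4% in Ms4a18 and 75.2% in Trim47, against a median of 52.4% over all windows. These letters say nothing about receptor binding, which was not measured.

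Cbln1 was above background in wild-type organoids given calcitriol and in no other group. It encodes cerebellin 1, a secreted protein of the C1q family that bridges neurexins and a glutamate-receptor-like protein at cerebellar synapses. It stood at -0.13, -1.28 and -2.19 on the wild-type calcitriol arrays, from mouse 1 to mouse 3. The wild-type vehicle arrays read -6.82, -4.82 and -6.75, of which none was well above background. The value of mouse 2 comes from the array with the raised low signals, whose lowest signal above background was itself -4.55. The vehicle level is not known. Each dim array was given the lowest level of any probe above background there, or its own if higher. Calcitriol cultures were 12.9-fold higher by this rule, called the lower bound here. A probe not above background can lie above that lowest level, so the bound holds only under the rule. This bound is 3.69 on the log2 scale, and 1.97 under normexp, a background correction that was run with a constant added to every signal. No difference within a mouse is given.

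In knockout, Cbln1 read -6.29, -7.40 and -6.55 in vehicle and -5.90, -8.05 and -7.59 with calcitriol. All 6 values are below background and have no order. With calcitriol in both genotypes, wild-type cultures were 25.1-fold higher than knockout cultures by the same rule. This bound is 4.65 on the log2 scale, and 2.19 under normexp.

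Trim47 was higher with calcitriol in every wild-type mouse. Tripartite-motif proteins of this kind attach ubiquitin to other proteins through a RING domain. It stood at -2.61, -2.83 and -2.10 in wild-type vehicle and at 0.09, 0.75 and -0.05 with calcitriol. The groups were well apart, and the difference of 2.78 (SE 0.32, n = 3 and 3) was a 6.85-fold change. Knockout arrays read -2.28, -2.95 and -2.00 in vehicle and -2.27, -2.77 and -2.01 with calcitriol, a difference of 0.06 (SE 0.32). The 2 knockout arrays of each mouse lay close together, with mouse 2 lowest and mouse 3 highest under both treatments. The other Trim47 probe gave 2.65 in wild type and -0.03 in knockout.

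Spon2 was also higher in every wild-type mouse and had the widest spread of the 7 over the wild-type calcitriol arrays. Mindin, its product, is a matrix protein known as an integrin ligand and as a binder of bacterial surfaces. Wild-type vehicle arrays read -2.32, -2.24 and -3.61, and calcitriol arrays read 2.36, 0.72 and -0.18. Mouse 1 was highest with calcitriol, and the array of mouse 3, the lowest with calcitriol, was still above every vehicle array. The difference was 3.69 (SE 0.57), a 12.9-fold change, and 2.99 without the calcitriol array of mouse 1. The hormone arrays spanned 2.54, against a median span of 0.39 over all genes tested in that group. In knockout, the arrays read -2.80, -3.16 and -3.70 in vehicle and -2.75, -3.27 and -3.62 with calcitriol, a difference of 0.01 (SE 0.57). Mouse 3 was the lowest of its group in all 4 groups.

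Ms4a18 and Rtn4rl1 were lower with calcitriol in wild type. MS4A proteins cross the membrane 4 times and are best known from blood cells, while the Rtn4rl1 product is a lipid-anchored surface receptor studied in neurons. Ms4a18 stood at -1.37, -1.82 and -1.87 in wild-type vehicle and at -2.77, -3.37 and -3.25 with calcitriol. The groups were separate, and each mouse was lower by a similar amount (-1.40, -1.55 and -1.39), so that the difference of -1.45 (SE 0.22) was a 2.72-fold change downwards. Knockout arrays read -1.62, -1.25 and -1.69 in vehicle and -1.49, -1.51 and -1.49 with calcitriol, with a difference of 0.03 (SE 0.22). The 3 hormone arrays were nearly identical and lay inside the range of the vehicle arrays.

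Rtn4rl1 stood at -0.99, -1.03 and -1.48 in wild-type vehicle and at -2.19, -2.84 and -2.65 with calcitriol. The difference was -1.39 (SE 0.27), a 2.62-fold change downwards, and was largest in mouse 2 at -1.81 against -1.19 and -1.18 in mice 1 and 3. In knockout, it read -0.61, -1.41 and -0.87 in vehicle and -0.85, -1.36 and -0.61 with calcitriol. Mouse 2 was lowest under both treatments, and the difference was 0.02 (SE 0.27). In these cultures, fewer cells of a type that expresses a gene and less of its RNA per cell cannot be told apart.

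**Figure D2:**
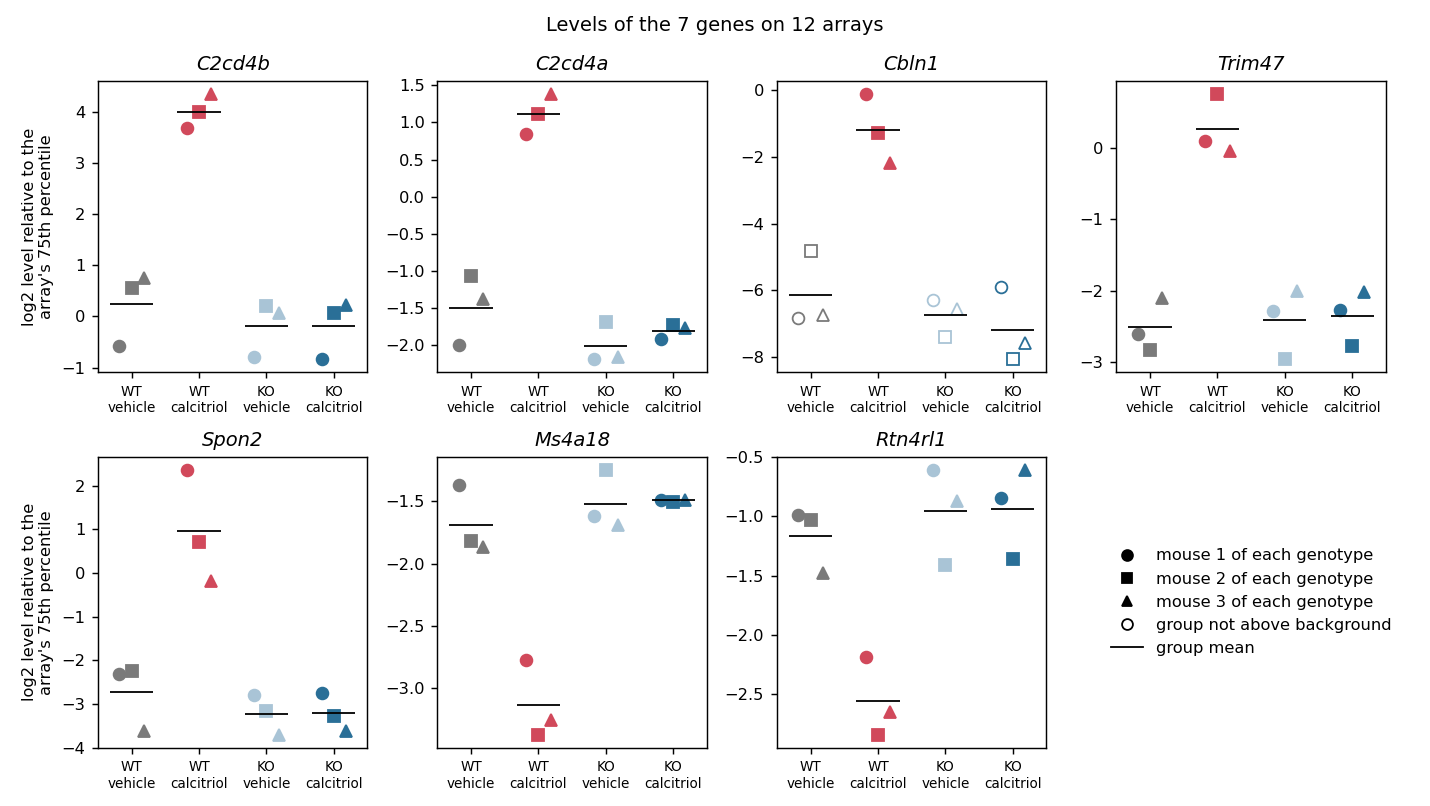
Level (log2, relative to the array's 75th percentile) of each gene on the 12 arrays, with mice 1 to 3 as circle, square and triangle, group means as lines, and open symbols where no array of a group was above background. The wild-type calcitriol arrays stand apart in every panel, above the other 3 groups for 5 genes and below them for Ms4a18 and Rtn4rl1.

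The wild-type vehicle and calcitriol arrays did not overlap for any of the 7 genes, and neither did the wild-type and knockout arrays under calcitriol. Over all 24245 genes tested, 8.96% were free of overlap in wild type in either direction and 7.42% between the genotypes under calcitriol, but the choice of genes fixed these counts and nothing is read from them. In knockout, the vehicle and calcitriol arrays overlapped for the 6 genes above background, against 7.47% of all genes free of overlap. The choice of genes favoured this too, and nothing is read from it. The response in wild type minus that in knockout was 3.77 for C2cd4b (SE 0.55), 2.39 for C2cd4a (SE 0.35), 2.72 for Trim47 (SE 0.45), 3.68 for Spon2 (SE 0.81, and 2.99 when wild-type mouse 1's hormone array was left out), -1.47 for Ms4a18 (SE 0.31) and -1.41 for Rtn4rl1 (SE 0.39). Scaled to the median, where the median of all genes moved from -0.07 to 0.69, the same differences were 4.53, 3.15, 3.48, 4.44, -0.71 and -0.65 in that order. No size is given for Cbln1, which was not above background in knockout.

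**Figure D3:**
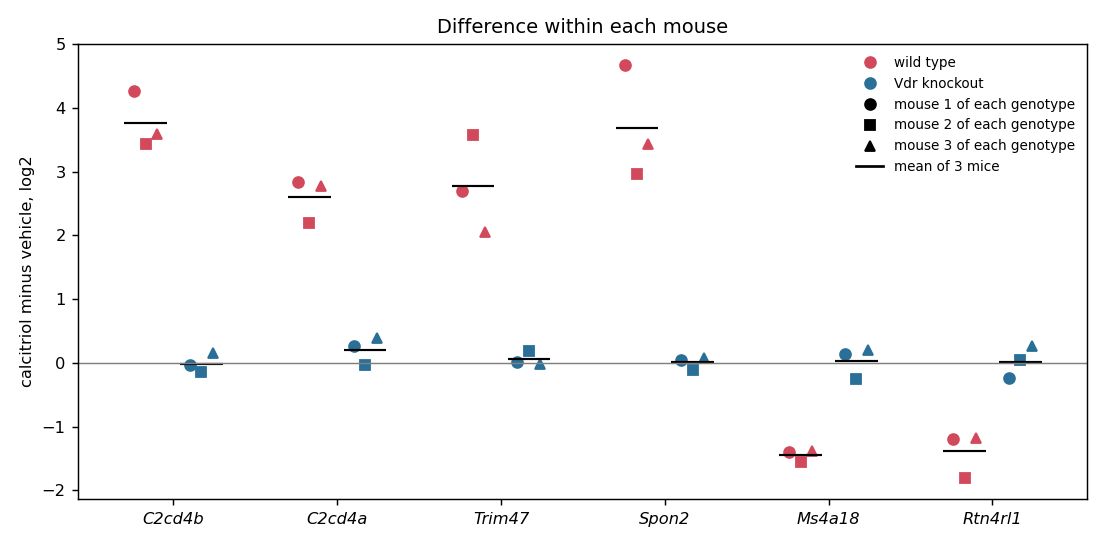
Calcitriol minus vehicle (log2) within each mouse for 6 genes, in wild type and Vdr knockout, with the mean of 3 mice as a line; Cbln1 is left out because its vehicle arrays lie below background. The 3 wild-type mice share a direction for each gene, while no gene has 1 direction in all 3 knockout mice. The choice of genes favoured both.

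Within wild type, the mice differed in how far each of the 6 genes other than Cbln1 moved. Mouse 1 had the largest difference for C2cd4b (4.26, against 3.44 and 3.59), C2cd4a (2.84, against 2.19 and 2.77) and Spon2 (4.68, against 2.97 and 3.43). Mouse 2 had the largest for Trim47 (3.58, against 2.70 and 2.05), Ms4a18 and Rtn4rl1. The standard deviation over the 3 mice was 0.09 for Ms4a18 and 0.89 for Spon2, the least and the most of the 6.

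Knockout and wild-type organoids without added hormone were compared to ask whether the receptor matters for these genes before calcitriol is given. This is not the contrast that chose the genes, although the vehicle arrays of both genotypes entered the choice through the responses. limma called 0 of the 6 genes above background and 0 with the replicate number as a block, where it called 0.00412% and 0.0165% of all genes tested. At an unadjusted p under 0.05 it called 0 of these 6, against 8.74% of all genes. The arrays of the 2 genotypes overlapped for each of the 6 genes above background, while 8.18% of all genes had no overlap. C2cd4a differed by -0.53 in knockout relative to wild type (SE 0.25, 95% interval -1.06 to 0.01, limma adjusted p = 0.582). C2cd4b differed by -0.41 (SE 0.39, interval -1.27 to 0.44) and Spon2 by -0.50 (SE 0.57, interval -1.74 to 0.75), with adjusted p of 0.803 and 0.851. Trim47 (0.10, interval -0.59 to 0.80), Ms4a18 (0.16, interval -0.32 to 0.64) and Rtn4rl1 (0.20, interval -0.39 to 0.80) had adjusted p between 0.881 and 0.959. Scaled to the median in place of the 75th percentile, which moved the median of all genes in this comparison from -0.06 to 0.70, C2cd4b (0.35), C2cd4a (0.23) and Spon2 (0.26) turned to higher in knockout. Trim47, Ms4a18 and Rtn4rl1 then stood at 0.86, 0.92 and 0.96, with limma adjusted p of 0.152, 0.147 and 0.147, and no gene passed. No direction can therefore be given for these genes in vehicle. The intervals reach as far as -1.74, so the genotypes are not shown to be alike. The vehicle arrays of mice 1 and 2 lay on different slides for the 2 genotypes, and only those of mouse 3 shared a slide. Genotype and slide can therefore not be fully told apart in vehicle. With slide as a block, the differences were -0.23 for C2cd4b, -0.71 for C2cd4a, 0.48 for Trim47, -0.74 for Spon2, 0.09 for Ms4a18 and 0.61 for Rtn4rl1. For Cbln1 both groups were below background, and no size is given.

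With calcitriol in both genotypes, knockout minus wild type was -4.18 for C2cd4b (SE 0.39), -2.92 for C2cd4a (SE 0.25), -2.61 for Trim47 (SE 0.32) and -4.18 for Spon2 (SE 0.57, and -3.48 without the wild-type array of mouse 1). Ms4a18 and Rtn4rl1 went the other way, at 1.64 (SE 0.22) and 1.62 (SE 0.27). This comparison shares the wild-type calcitriol arrays with the one that chose the genes.

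The arrays lay on 3 slides, and the largest held 7 arrays, including all 3 wild-type calcitriol arrays but 1 wild-type vehicle array, that of mouse 3. With slide as a block, the wild-type difference was 3.71 for C2cd4b (SE 0.52), 2.56 for C2cd4a (SE 0.32), 2.74 for Trim47 (SE 0.39) and 3.93 for Spon2 (SE 0.73). It was -1.35 for Ms4a18 (SE 0.27) and -1.07 for Rtn4rl1 (SE 0.31). Within the largest slide these differences were 3.26, 2.50, 2.36, 4.58, -1.27 and -1.08 in the same order, each resting on the vehicle array of mouse 3. For Cbln1 the lower bound was 3.65 within the largest slide, and none is given with slide as a block. In knockout, C2cd4b was at -0.45, Trim47 at -0.52 and Spon2 at 0.69 within the largest slide, against -0.01, 0.06 and 0.01 in the main fit. Each knockout group had at most 2 arrays on that slide.

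The genes beside the 7 on their chromosomes were examined through the order of genes in RefSeq. C2cd4b and C2cd4a are each other's nearest measured gene on 1 side, with 4 unmeasured loci between them. On the outer sides, Tln2, which encodes talin 2, differed by -0.34 in wild type (SE 0.14) and Vps13c, a lipid transport protein gene adjacent to C2cd4a, by 0.11 (SE 0.25), both with limma adjusted p = 1.00. Beside Cbln1, the transcript Gm2694 was higher by 1.31 with calcitriol in wild type (SE 0.30, n = 3 and 3) without passing (limma adjusted p = 0.231, and 0.171 with mouse as a block). Its wild-type arrays read -3.09, -2.83 and -2.43 in vehicle and -1.06, -1.33 and -2.01 with calcitriol. They did not overlap, which held for 8.96% of all genes in either direction. Mouse 1 was highest with the hormone, as for Cbln1 and also for Spon2 on another chromosome. In knockout Gm2694 differed by 0.36 (SE 0.30). The difference between genotypes, 0.95, did not pass either (limma adjusted p = 0.649 with mouse as a block).

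Trim65, the neighbour of Trim47 and a member of the same protein family, differed by -0.04 (SE 0.32). Ms4a15, next to Ms4a18, differed by 0.01 (SE 0.57), and the glucose transporter gene Slc5a1, next to Spon2, by -0.43 (SE 0.31). limma called 0 of the 12 neighbours in any of the 5 comparisons, and 0 with the replicate block. Of all genes it called at most 0.206% in any of these comparisons, and at most 1.03% with the block. The counts of 0 are near these shares, and nothing is read from them. At an unadjusted p under 0.05 there were 2 of the 12 in wild type, against 4.55% of all genes. Their wild-type differences ranged from -0.43 to 1.31.

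**Figure D4:**
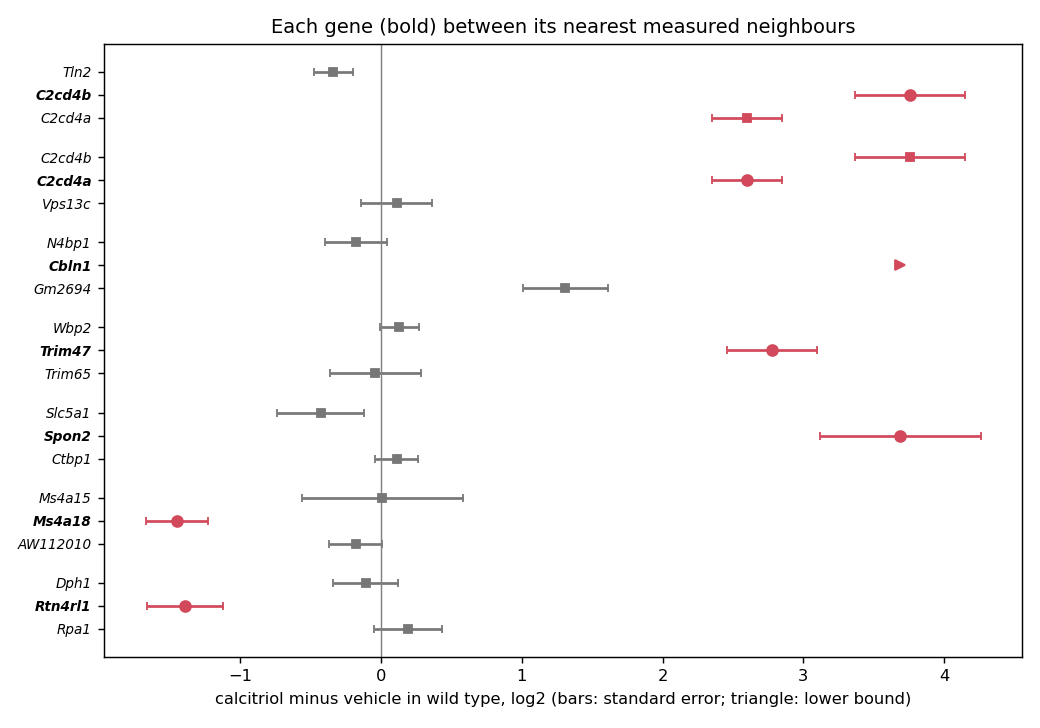
Calcitriol minus vehicle in wild type (log2, bars are standard errors) for each of the 7 genes, in bold, between the nearest measured genes on both sides; the triangle for Cbln1 is its lower bound, 3.69. Apart from the C2cd4 pair, whose members neighbour each other, the neighbours lie between -0.43 and 1.31, with Gm2694 beside Cbln1 the highest.

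No relative or partner of the 7 genes passed the test. Of 91 genes in 6 lists, 53 passed the filter on dim probes, and limma called 0 of them in any of the 5 comparisons. Of all genes it called 0.161% in wild type, 0% in knockout, 0.0289% for the difference between genotypes, 0.00412% in vehicle and 0.206% under calcitriol. With the replicate block it again called 0 of the 53, and 0.969%, 0%, 0.239%, 0.0165% and 1.03% of all genes in the same order. The counts of 0 are near these shares, so they do not set the relatives apart from other genes. At an unadjusted p under 0.05 there were 1 in wild type, 4 in knockout, 1 for the difference, 3 in vehicle and 1 under calcitriol, against 4.55%, 5.77%, 3.38%, 8.74% and 3% of all genes. Their wild-type differences had a median of 0.02, against -0.03 over all genes tested.

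Of the 12 relatives and synaptic partners of Cbln1, the neurexin genes Nrxn2 (-0.26, SE 0.36) and Nrxn3 (0.44, SE 0.27) were the 2 that passed the filter. Among 28 measured Trim genes, Trim15 (0.33, SE 0.17) and Trim3 (-0.22, SE 0.14) had the largest statistics. In the Spon2 list, the integrin genes Itgam (0.46, SE 0.28) and Itgb2 (-0.52, SE 0.45), whose products form a receptor on leukocytes, were among 4 measured of 10. In the MS4A list, 6 of 19 were measured, with Ms4a4c at 0.15 (SE 0.11) and Ms4a8a at 0.03 (SE 0.15). In the Nogo receptor list, 12 of 15 were measured. Rtn4rl2, the closest relative of Rtn4rl1, differed by 1.56 (SE 0.80) in wild type and 1.21 (SE 0.80) in knockout. Its vehicle means were -5.88 in wild type and -6.11 in knockout. The arrays' lowest signals above background lay at -6.37 to -4.55, so these 2 sizes are uncertain. Tnfrsf19, a receptor of the tumour necrosis factor family also known from intestinal stem cells, differed by -0.86 (SE 0.32) in wild type. Each of these differences had limma adjusted p = 1.00 in wild type.

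For each gene, the named genes with the most similar profile, 3 for each, were found by the root mean square difference of mean-centred log2 levels over the 12 arrays. Since hormone and genotype shape these profiles, likeness means a similar response and no more. Nearest to C2cd4b were Cthrc1, a secreted collagen-repeat protein gene, at 0.68 and Gm2061 at 0.73 and Ttyh1, a membrane protein gene, at 0.75. Nearest to C2cd4a were Ttyh1 (0.40), the phosphodiesterase gene Gdpd5 (0.43) and Srcin1 (0.52). For Cbln1, whose levels in 3 of the 4 groups lie below background, they were the monoglyceride lipase gene Mgll (0.92), the kallikrein gene Klk11 (0.97) and Mgp, which encodes an inhibitor of calcification (1.06).

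Trim47 was nearest to Gdpd5 (0.42), Gm8909 (0.46) and Srgap3 (0.48), and Spon2 to the alcohol dehydrogenase gene Adh6a (0.59), the mucosal pentraxin gene Mptx1 (0.60) and Cthrc1 (0.64). Of the genes with lower levels, Ms4a18 was near to the transcription regulator gene Id2 (0.32) and the matrix protein gene Smoc2 (0.34). These differed by -0.74 (SE 0.24) and -0.98 (SE 0.20) in wild type. Rtn4rl1 was nearest to Hsd17b14 (0.31), Ifitm2 (0.33) and Tgfbi (0.34), at -0.74 (SE 0.30), -0.62 (SE 0.25) and -0.67 (SE 0.33). None of these 5 was lower by as much as the gene it resembled. Their small distances do not make them closer matches. Relative to the member's own root mean square of mean-centred levels, the 5 distances were 41.9% to 47.3%. By the same measure Cthrc1 lay at 37.3% for C2cd4b and Mgll at 36.1% for Cbln1.

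Markers were read to see which cells the cultures held. All 14 colon epithelium markers, among them Epcam, Cdh1, Vil1 and Cdx2, were above background on all 12 arrays, as were all 10 of goblet and deep crypt secretory cells. Of the 12 neuron and glia markers, Snap25, Elavl4 and Elavl3 were among those above background on all 12 arrays, and S100b was above it on none. Their summed level, in multiples of the 75th percentile, was 9.10 to 21.2 in wild-type vehicle, 16.1 to 20.1 in wild-type calcitriol, 7.03 to 14.7 in knockout vehicle and 8.27 to 21.1 in knockout calcitriol. The range in wild-type calcitriol, the group with Cbln1 above background, lies above that in knockout vehicle and overlaps the other 2. The part of such cells in the level of Cbln1 was not tested. The immune markers summed to 6.47 to 9.49, 5.85 to 9.90, 5.80 to 9.12 and 5.96 to 11.4 in the same order.

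Secretory markers moved with the hormone in part. Atoh1, the transcription factor gene that starts secretory differentiation in crypts, rose by 1.84 in wild type (SE 0.24, limma adjusted p = 0.0098) and was the 1 called member of its list, against 0.161% of all genes. With mouse as a block, where 0.969% of all genes were called, Tff3, a goblet cell peptide gene, also rose by 0.64 (limma adjusted p = 0.00934) and Reg4, a deep crypt secretory cell marker, fell by 0.73 (limma adjusted p = 0.0192). The list's sum was 89.6 to 189 in wild-type vehicle and 125 to 231 with calcitriol. Of 15 enteroendocrine markers 13 passed the filter and 0 were called, with sums of 14.5 to 32.9 and 19.4 to 41.5, and Neurog3, a regulator of enteroendocrine differentiation, differed by 1.13 (SE 0.22, limma adjusted p = 0.108, or 0.00317 in the blocked fit). The part of such cells in the levels of the 7 genes was not tested.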

How the data were processed

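RNA of 12 organoid cultures was hybridised in 1 colour (100 ng of RNA labelled with Cy3, per the labels). The authors deposited linear spot intensities from Agilent Feature Extraction 11.5.1.1, per the file headers; the processed intensity is background-subtracted and detrended, with no normalization between arrays, and the probe design is annotated on mm9. Control and outlier spots were left out, log2 was taken, the 75th percentile of each array subtracted and spots of a probe averaged. Of 55681 probes 28026 received a symbol through accessions in a RefSeq table of GRCm38.p6. 33410 passed the filter, which asks for a signal well above background on every array of some group. This gave 24245 genes or unnamed transcripts, each taken by its brightest probe, and 14905 of them have a symbol. Shares of all genes are over these 24245. limma 3.58.1 in R 4.3.3 fitted 4 group means over 12 arrays (variance trend, 2-sided, Benjamini-Hochberg, threshold 0.05). The fit was also run on simulated data with a mouse effect but no slide effect, so that run says nothing about slide. The number of arrays limits the precision.

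Arrays with 1 genotype and number share a mouse; deviations from group means correlated at 0.10 to 0.59 across genes within mice and at 0.13 to 0.64 for equal numbers between genotypes, so a blocked fit was an alternative. The other alternatives were slide, background correction, scaling, filter, probe rule, trend, arrays fitted and leaving out arrays. Normexp used the median spot signal in place of the mean planned. The text names all 7 members, of each list of relatives the called genes or otherwise the 2 with the largest statistic in wild type, the nearest measured neighbours, the 3 nearest profiles and Vdr and Cyp24a1 as checks. Ddx3y and the cell type markers named singly were chosen after their values were seen. Members and lists were chosen with earlier results of these data known. Some genes that these rules select, 1 of them among the nearest profiles, are not reported here.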

Additional observations from a re-analysis of the deposited data

Results flagged for a closer look

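Gdpd5, a phosphodiesterase gene named here because its profile resembles those of C2cd4a and Trim47, responded to calcitriol differently in the 2 genotypes. Calcitriol minus vehicle was 2.27 in wild type and 0.14 in knockout (SE 0.16 each), and the difference of 2.13 (SE 0.23) passed over all genes (limma adjusted p = 0.00579, and 0.000623 with mouse as a block). Among the nearest profiles, Gdpd5 alone passed for this difference in the main fit, and the next was Srgap3 (limma adjusted p = 0.133). With mouse as a block, Srgap3, Adh6a and Mgp passed too (limma adjusted p = 0.00765, 0.000623 and 0.00694). Because all of these were found by likeness to genes chosen for that difference, this is not independent support for them.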

How the results depend on the processing

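In wild type the 6 genes other than Cbln1 kept their direction under every alternative run. The choice of genes favoured this, and nothing is read from it. The replicate block, the filter, the variance trend and fitting the compared arrays alone also leave these wild-type differences as they were. Scaling to the median moved the median of all genes from -0.03 to 0.44 in wild type and from 0.04 to -0.25 in knockout; under it, C2cd4b stood at 4.23, C2cd4a at 3.07, Ms4a18 at -0.98 and Rtn4rl1 at -0.92 in wild type, and C2cd4b at -0.30, C2cd4a at -0.08, Trim47 at -0.24, Spon2 at -0.29, Ms4a18 at -0.26 and Rtn4rl1 at -0.27 in knockout. The difference between genotypes was then 4.53 for C2cd4b, 3.15 for C2cd4a, -0.71 for Ms4a18 and -0.65 for Rtn4rl1, where the median of all genes was 0.69. Under normexp, which compresses low signals by its offset of 50, Ms4a18 was at -1.05 in wild type, the difference between genotypes was -1.11 for Ms4a18, and knockout minus wild type under calcitriol was -2.55 for C2cd4a and 1.14 for Ms4a18. The lower bounds of Cbln1 were then 1.97 over wild-type vehicle and 2.19 over knockout calcitriol, against 3.69 and 4.65. With the mean over a gene's probes, knockout minus wild type under calcitriol was -3.31 for C2cd4a.

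Slide moved C2cd4b to 3.26 and Spon2 to 4.58 within the largest slide, and Ms4a18 to -1.35 as a block and -1.27 within that slide. In knockout the block and the largest slide gave -0.22 and -0.45 for C2cd4b, -0.33 and -0.52 for Trim47, 0.37 and 0.69 for Spon2 and -0.23 and -0.23 for Rtn4rl1, and the difference between genotypes for Rtn4rl1 was -0.85 in both. The causes were not tested.

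Leaving out single arrays, or replicate 2 (an alternative chosen after seeing the data), gave 2.99 to 4.27 for Spon2 and -1.62 to -1.29 for Ms4a18 in wild type, bounds of 3.15 to 4.19 and 4.12 to 5.15 for Cbln1, and in knockout -0.32 to 0.32 for C2cd4b, -0.21 to 0.27 for Trim47 and -0.23 to 0.22 for Spon2. All 96 alternatives for the 6 genes above background between genotypes in vehicle stayed on the same side of the threshold, with adjusted p of 0.105 or more, and 0.302 to 0.873 with the replicate block, but C2cd4b, C2cd4a and Spon2 changed sign when scaled to the median, where the median of all genes was 0.70.

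The count of all genes called moved more. In wild type it was 39, and 235 with the replicate block, 6 with slide as a block, 3 within the largest slide, 70 scaled to the median, 20 with the compared arrays alone, and 1 to 32 without single arrays or replicate 2. For the difference between genotypes it was 7, and 58, 1, 2 and 21 under the first 4 of these, 11 under normexp, and 1 to 8 with arrays left out. In vehicle it was 1, and 4, 0, 0 and 2 under the same 4, 3 without a variance trend, 0 with the compared arrays alone, and 0 to 1 with arrays left out. Under calcitriol it was 50, and 249 with the replicate block, 16 within the largest slide and 10 to 35 with arrays left out. The 85 recounts of relatives gave 0 throughout. Cbln1 is limited by background outside the wild-type hormone group.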
